A study of Schizosaccharomyces pombe with 12 samples.

Results

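The stress-activated Sty1 MAP kinase pathway of fission yeast (Schizosaccharomyces pombe) was followed through 10 genes: wis4, win1, mcs4, wis1, sty1, pyp1, pyp2, atf1, pcr1 and srk1. They were chosen by their PomBase names, which were matched to the gene identifiers of a deposited table of read counts, and they are 10 of the 12683 genes listed there. The rule uses names and no measured value. Earlier results of these data were known when these genes and the gene lists set beside them below were chosen. Sequencing of polyA RNA covered 3 strains, each with 1 mM hydrogen peroxide (H2O2) for 30 min and untreated, in 2 libraries per group and 12 libraries in all. The groups are treated ubp16 and untreated ubp16, treated ubp8 and untreated ubp8, and treated WT and untreated WT. WT is given as strain 972, and the mutants are described as deletion strains without a statement of how the deletions were made. The media (YE5S) and the temperature were shared by all groups. Ubp8 and Ubp16 are ubiquitin-specific proteases, enzymes that remove ubiquitin from other proteins, and Ubp8 works within the SAGA transcription coactivator.

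In this pathway the kinases Wis4 and Win1, with the response regulator Mcs4, activate the MAP kinase kinase Wis1, which phosphorylates the MAP kinase Sty1. Active Sty1 enters the nucleus and acts through the transcription factor Atf1 and its partner Pcr1, which bind DNA at cAMP response elements, and it is switched off by the tyrosine phosphatases Pyp1 and Pyp2. The pathway is known for its part in the response to osmotic, oxidative and heat stress and to starvation, and several of its own genes, among them pyp2, atf1 and srk1, are known transcriptional targets of Atf1.

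Total counts per library ran from 9904056 to 14054746, and 3 counts came to at most 0.316 CPM, a floor that covers counting error only. Levels below are CPM (counts scaled to library size) after TMM scaling, and fold changes are log2 values ± SE from edgeR's quasi-likelihood test with Benjamini-Hochberg adjustment over the 8166 genes tested; a gene was called at an adjusted p under 0.05. All 10 genes were tested, with 204 counts or more in every library. Whether replicate libraries stem from separate cultures is not stated, and the p-values then describe only how these samples vary, which may be technical. The ubp16 transcript had 9.38 to 25.0 CPM in ubp16 libraries, against 20.5 to 54.3 CPM in WT libraries, and the ubp8 transcript had 8.34 to 10.6 CPM in ubp8 libraries, against 29.9 to 37.5 CPM in WT libraries, each lower in the mutant within each condition. The ubp16 transcript was also called lower in untreated ubp8 than in untreated WT (-0.65 ± 0.14, edgeR adjusted p = 0.00335). Both transcripts thus had counts above the floor in the strains labelled as their deletions, and which stretch of each gene was removed is not stated. The summed level of 5 genes specific to M mating-type cells was 143 to 176 CPM in treated ubp16, 174 to 231 in untreated ubp16, 55.5 to 57.9 in treated ubp8, 79.8 to 106 in untreated ubp8, 33.6 to 36.2 in treated WT and 56.2 to 67.2 in untreated WT. That of 2 genes specific to P cells was 7.49 to 9.1 CPM in treated ubp16 and 8.71 to 9.71 in untreated ubp16. It was 6.13 to 8.36 CPM in treated ubp8 and 11.1 to 12 in untreated ubp8. In WT it was 3.06 to 3.58 CPM treated and 8.56 to 8.59 untreated. None of these 7 markers was at 0 in a group. With peroxide, 2 of the 2 P-cell markers were called lower in WT, 1 in ubp8 and 0 in ubp16. Against WT, 1 was called higher in treated ubp16, 1 in treated ubp8 and 0 in either untreated mutant. The M-cell markers moved with strain and treatment: 4 of 5 were called higher in ubp16 than in WT in each condition, 3 of 5 in untreated ubp8 and 1 of 5 in treated ubp8, and 2 of 5 were called lower with peroxide in each strain. Of all genes tested, 28.7% and 14.3% were higher in treated and untreated ubp16 than in WT, and 16.6% and 15.1% in ubp8. With peroxide, 25.2%, 25.8% and 27% were lower in ubp16, ubp8 and WT. The part of the M-cell and P-cell markers in the mutant and peroxide results below was not tested. In bulk RNA, fewer cells of a type and less RNA per cell cannot be told apart.

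The promoters of the members were read first, because 5 of the 10 were called at 2-fold or more in treated against untreated WT: pyp1, pyp2, atf1, pcr1 and srk1. The core of the cAMP response element, TGACGT, was searched on both strands (ACGTCA on the other strand) in the 250 bases before to 50 bases after the annotated start of each gene. It was found in 2 of the 10 members, atf1 and srk1, against 302 of 5111 coding promoters (5.91%) with such a match. The positions are those of the ASM294v3 reference annotation. No source used here names the build behind the counts, and no coordinates come from the count table. The upstream 250 bases are shown for atf1 and srk1, which hold the match, and for pyp2, the member with the largest change in WT, which holds none. All are written 5′ to 3′ on the strand of the gene (the + strand in each case), with matches in capitals; in atf1 the matches on both strands overlap and make the palindrome TGACGTCA.
atf1, II:1545967-1546216: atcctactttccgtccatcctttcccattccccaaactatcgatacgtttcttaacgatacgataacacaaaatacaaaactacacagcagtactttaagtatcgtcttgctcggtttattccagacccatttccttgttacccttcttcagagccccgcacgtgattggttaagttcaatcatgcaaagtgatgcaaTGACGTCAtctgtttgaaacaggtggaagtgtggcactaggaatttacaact
srk1, III:1301687-1301936: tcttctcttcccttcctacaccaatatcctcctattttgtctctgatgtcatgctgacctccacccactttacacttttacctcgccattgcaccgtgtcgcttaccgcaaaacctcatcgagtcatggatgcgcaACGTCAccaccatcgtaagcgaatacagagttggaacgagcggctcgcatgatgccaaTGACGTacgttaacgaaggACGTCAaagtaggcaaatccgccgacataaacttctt
pyp2, I:5202406-5202655: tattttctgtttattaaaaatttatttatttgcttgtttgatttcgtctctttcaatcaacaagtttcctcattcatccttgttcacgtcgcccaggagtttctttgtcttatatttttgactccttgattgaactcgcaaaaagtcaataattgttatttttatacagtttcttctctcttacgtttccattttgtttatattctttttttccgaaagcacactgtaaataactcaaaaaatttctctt

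The matches of atf1 begin 52 and 50 bases before the start and those of srk1 114, 56 and 37 bases before it. No match in the windows of the other 8 members says only that these letters are not in them. Sequences and positions were taken from NCBI RefSeq's copy of the ASM294v3 genome.

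The transcripts of the pathway differed in abundance, and the order changed with peroxide. Per kb of annotated exon length, sty1 (SPAC24B11.06c) had the highest level of the 10 in all 3 untreated groups, with a mean of 191 CPM per kb in ubp16, 169.9 in ubp8 and 181 in WT. The phosphatase gene pyp2 had the lowest, with 7.90 CPM per kb in untreated ubp16, 7.34 in untreated ubp8 and 8.14 in untreated WT. In treated WT srk1 led with 349 CPM per kb, followed by sty1 with 277 and pyp2 with 276. In treated ubp8 the same 3 genes led, with 374, 259 and 196 CPM per kb. In treated ubp16 sty1 and srk1 stood side by side at 312 and 309.8 CPM per kb, and pyp2 was 6th of the 10 with 60.5. Of the summed per-kb level of the 10 genes, sty1 held 31.1% and 26.4% in treated ubp16, and 21.0% and 19.9% in treated WT; in untreated WT it held 41.2% and 39.8%.

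**Figure D1:**
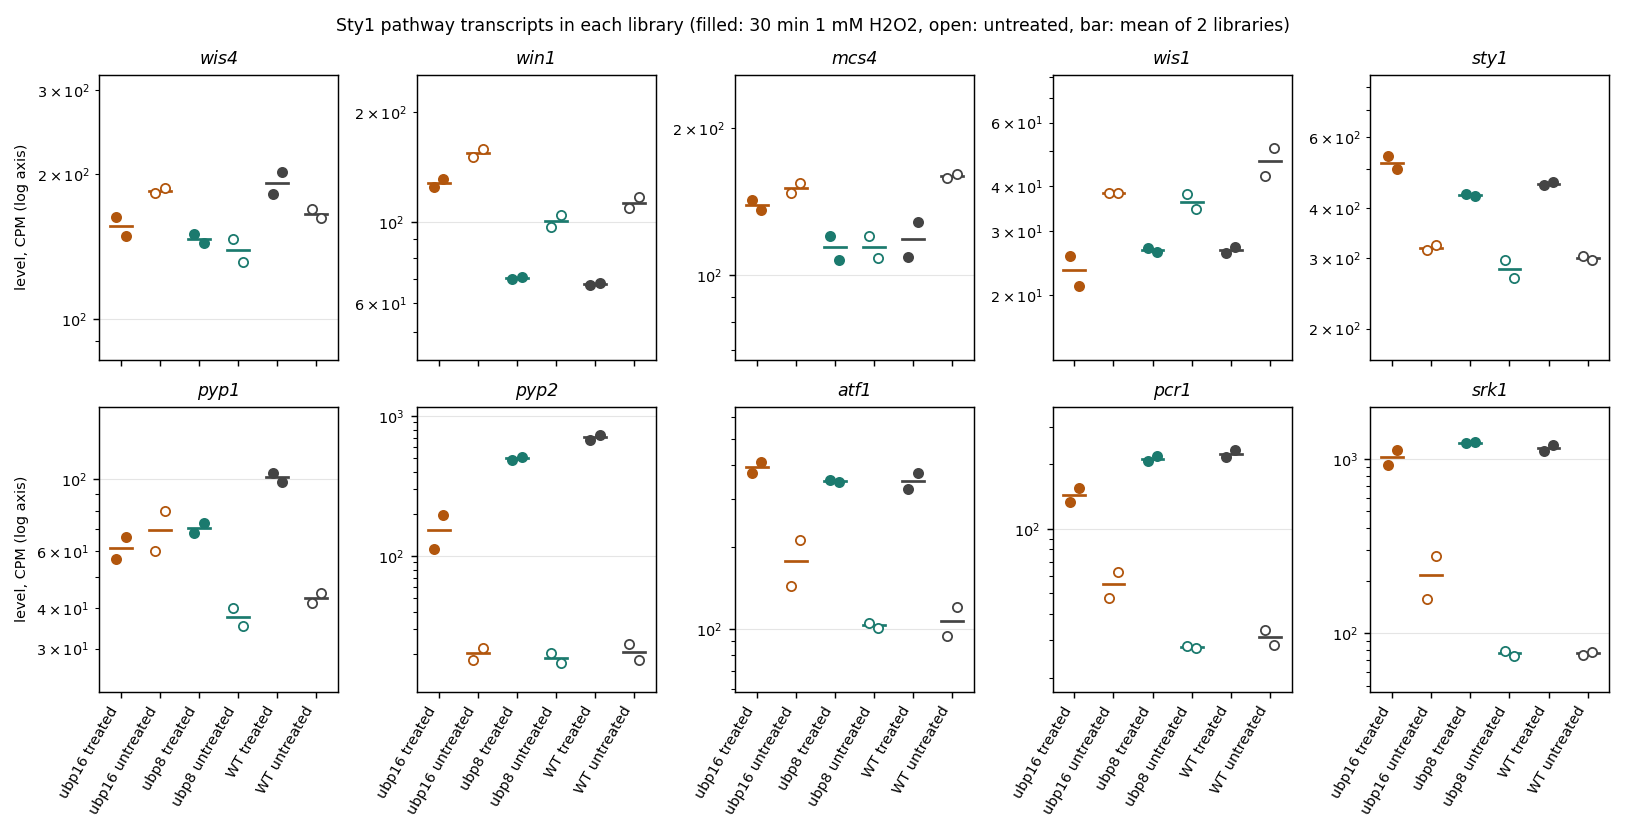
Level of each pathway transcript (CPM after TMM scaling, log axis, a separate scale for each gene) in the 12 libraries, with treated libraries filled, untreated libraries open and a bar at the mean of the 2 libraries of a group. The 2 treated ubp16 libraries stood at 111 and 197 CPM for pyp2, apart from those of treated ubp8 and treated WT, which lay between 487 and 728.

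The first question was which members respond to peroxide in each strain. In ubp16, 8 of 10 were called, 5 higher and 3 lower, where 50.3% of all genes tested were called, 25.2% higher and 25.2% lower. In ubp8, 8 were called, 6 higher and 2 lower, with 53.8% of all genes called (28% higher and 25.8% lower). In WT, 9 were called, 6 higher and 3 lower, with 53.2% of all genes called (26.2% higher and 27% lower). The genes sty1, pyp2, atf1, pcr1 and srk1 were called higher after treatment in each of the 3 strains, and win1 and wis1 lower in each, while pyp1 was called higher in ubp8 and WT and not called in ubp16. The median log2 change of the 10 genes was 0.29 in ubp16, 0.76 in ubp8 and 0.93 in WT, beside -0.05, -0.06 and -0.04 over all genes tested.

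At the top of the cascade, win1 (SPAC1006.09), which encodes a MAP kinase kinase kinase, had 125 and 131 CPM in treated ubp16, against 151 and 158 CPM in untreated ubp16. It had 69.9 and 70.8 CPM in treated ubp8, against 97.0 and 104 CPM in untreated ubp8. In WT it had 67.4 and 68.3 CPM treated, against 109 and 117 CPM untreated. Treated libraries were below untreated ones in each strain, and every ubp16 library lay above every other. The log2 change was -0.27 ± 0.08 in ubp16 (adjusted p = 0.0118), -0.52 ± 0.08 in ubp8 (6.98e-05) and -0.74 ± 0.09 in WT (1.7e-06), all from edgeR. The ubp16 change lost its call without replicate 2 of untreated ubp16 (-0.23), without replicate 1 of treated ubp16 (-0.21) and with DESeq2 (-0.23).

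The other MAP kinase kinase kinase gene, wis4 (SPAC9G1.02), moved little. It had 163 and 149 CPM in treated ubp16, against 183 and 187 CPM in untreated ubp16, and its change of -0.25 ± 0.09 (edgeR, adjusted p = 0.0324) lost the call when any 1 of these 4 libraries was left out (-0.29 to -0.17), with median-of-ratios scaling, with DESeq2 and with no count filter (-0.21, -0.21 and -0.24). In ubp8 the change was 0.08 ± 0.09 and in WT 0.21 ± 0.09, neither called (edgeR, adjusted p = 0.487 and 0.0578). With library totals as scaling the ubp8 value was -0.24 and was called lower. The WT value was called higher with median-of-ratios scaling (0.23), a mean of at least 50 counts (0.25), the replicate block (0.22, adjusted p = 0.0485) and without replicate 1 of treated WT (0.30). The response regulator gene mcs4 (SPBC887.10) had 109 and 128 CPM in treated WT, against 158 and 161 CPM in untreated WT, a change of -0.43 ± 0.10 (edgeR, adjusted p = 0.00146). Its levels lay between 107 and 120.2 CPM in all 4 ubp8 libraries, treated or not, and between 136 and 154 CPM in all 4 ubp16 libraries. No change was called in either mutant, at -0.0035 ± 0.10 in ubp8 and -0.12 ± 0.10 in ubp16, but with library totals both were called lower (-0.33 and -0.37).

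The MAP kinase kinase gene wis1 (SPBC409.07c) was lower with peroxide in all 3 strains, by -0.71 ± 0.13 in ubp16, -0.44 ± 0.12 in ubp8 and -0.81 ± 0.13 in WT (edgeR, adjusted p = 0.000214, 0.00658 and 4.22e-05). It had 25.7 and 21.2 CPM in treated ubp16, against 38.3 and 38.4 CPM in untreated ubp16, and 26.2 and 27.1 CPM in treated WT, against 42.8 and 51.0 CPM in untreated WT. Without replicate 1 of untreated ubp8 the ubp8 change was not called (-0.38). The MAP kinase gene sty1 moved the other way. It had 537 and 499 CPM in treated ubp16, against 314 and 322 CPM in untreated ubp16, 433 and 429 CPM in treated ubp8, against 297 and 268 CPM in untreated ubp8, and 456 and 463 CPM in treated WT, against 303 and 297 CPM in untreated WT. Treated and untreated libraries did not overlap in any strain, and the log2 changes were 0.70 ± 0.09, 0.61 ± 0.09 and 0.62 ± 0.09 in ubp16, ubp8 and WT (edgeR, adjusted p = 5.78e-06, 2.56e-05 and 2.18e-05).

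The tyrosine phosphatase gene pyp2 (SPAC19D5.01) had the largest change of the 10 genes in each strain. It had 111 and 197 CPM in treated ubp16, against 18.1 and 22.1 CPM in untreated ubp16. It had 487 and 513 CPM in treated ubp8, against 20.2 and 17.2 CPM in untreated ubp8, and 677 and 728 CPM in treated WT, against 23.4 and 18.0 CPM in untreated WT. The untreated libraries of the 3 strains overlapped, and the treated libraries of the 3 strains did not. The level was 7.69-fold higher in treated than untreated ubp16 (2.94 ± 0.21), 26.7-fold in ubp8 (4.74 ± 0.22) and 34.0-fold in WT (5.09 ± 0.22), with edgeR adjusted p-values of 8.39e-09, 7.42e-11 and 3.92e-11.

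The phosphatase gene pyp1 (SPAC26F1.10c), whose product also acts on Sty1, was higher after treatment in ubp8 and WT. It had 68.3 and 73.4 CPM in treated ubp8, against 39.9 and 35.3 CPM in untreated ubp8 (0.91 ± 0.13, edgeR adjusted p = 1.32e-05), and 105 and 98.4 CPM in treated WT, against 41.4 and 44.4 CPM in untreated WT (1.24 ± 0.13, 4.18e-07). In ubp16 it had 56.7 and 66.2 CPM treated, against 59.97 and 79.6 CPM untreated. These ubp16 groups overlapped, and the change of -0.18 ± 0.13 was not called (edgeR, adjusted p = 0.251); it was called lower with library totals (-0.43) and without replicate 1 of untreated ubp16 (-0.38), and was 0.033 without replicate 2 of it.

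The transcription factor genes rose in all 3 strains. For atf1 (SPBC29B5.01) the levels were 375 and 409 CPM in treated ubp16, against 143 and 212 CPM in untreated ubp16, 352 and 345 CPM in treated ubp8, against 106 and 101 CPM in untreated ubp8, and 327 and 375 CPM in treated WT, against 94.1 and 120.3 CPM in untreated WT. All treated libraries lay above all untreated ones. The log2 change was 1.15 ± 0.15 in ubp16, 1.75 ± 0.15 in ubp8 and 1.71 ± 0.15 in WT (edgeR, adjusted p = 6.88e-06, 6.25e-08 and 7.98e-08). For pcr1 (SPAC21E11.03c), the partner in the heterodimer, the levels were 134 and 156 CPM in treated ubp16, against 47.7 and 62.6 CPM in untreated ubp16, 208 and 218 CPM in treated ubp8, against 28.2 and 27.6 CPM in untreated ubp8, and 216 and 233 CPM in treated WT, against 33.6 and 28.7 CPM in untreated WT. The treated ubp16 libraries were below those of both other strains and the untreated ones above them. The log2 change was 1.40 ± 0.12, 2.93 ± 0.13 and 2.85 ± 0.13 in ubp16, ubp8 and WT (edgeR, adjusted p = 6.81e-08, 5.28e-11 and 4.48e-11).

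Srk1 is a protein kinase that binds Sty1, is phosphorylated by it and holds back entry into mitosis by acting on the phosphatase Cdc25. Its gene (SPCC1322.08) had 926 and 1124 CPM in treated ubp16, against 157 and 277 CPM in untreated ubp16. It had 1231 and 1245 CPM in treated ubp8, against 79.8 and 74.1 CPM in untreated ubp8, and 1103 and 1204 CPM in treated WT, against 75.3 and 78.5 CPM in untreated WT. Treated ubp16 overlapped treated WT, while both untreated ubp16 libraries lay well above the other untreated ones. The log2 change was 2.24 ± 0.19 in ubp16, 4.01 ± 0.20 in ubp8 and 3.91 ± 0.20 in WT (edgeR, adjusted p = 4.29e-08, 1.71e-10 and 1.78e-10).

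**Figure D2:**
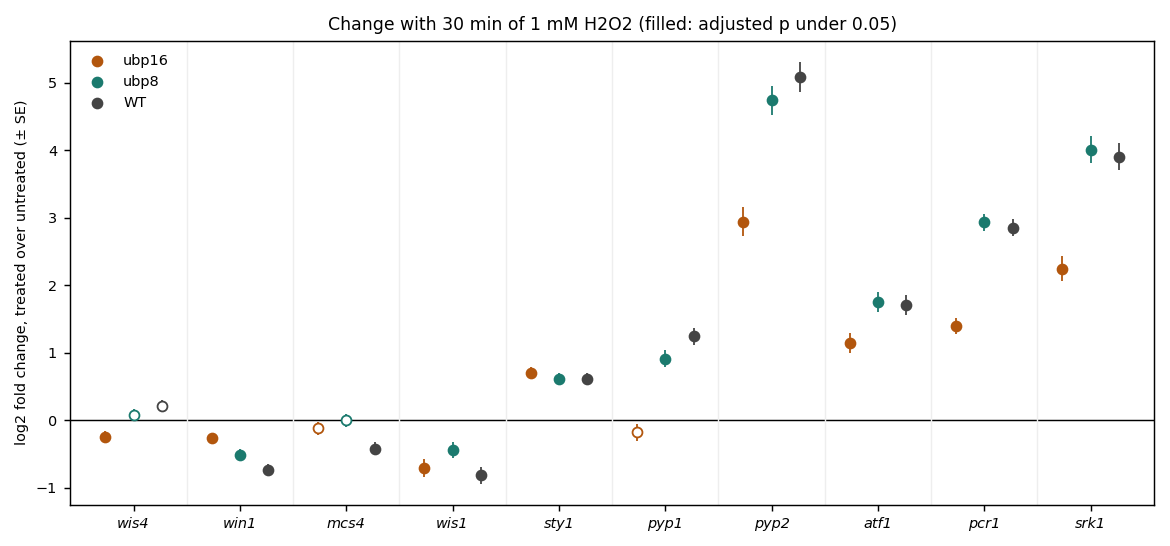
Log2 fold change of each pathway gene with peroxide (treated over untreated, ± SE, 2 libraries per group) in ubp16, ubp8 and WT, filled where the adjusted p was under 0.05. The ubp16 points of pyp1, pyp2, pcr1 and srk1 (-0.18, 2.94, 1.40 and 2.24) lie below those of WT (1.24, 5.09, 2.85 and 3.91), while the 3 points of sty1 lie between 0.61 and 0.70.

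The next question was how the mutants differ from WT before treatment. In untreated ubp16, 5 of 10 members were called, all higher than in untreated WT, where 25.6% of all genes were called (14.3% higher and 11.3% lower): win1, pyp1, atf1, pcr1 and srk1. The largest difference was in srk1, at 157 and 277 CPM in untreated ubp16, against 75.3 and 78.5 CPM in untreated WT (1.49 ± 0.19, edgeR adjusted p = 2.12e-05). The libraries did not overlap, but the ubp16 libraries differed from each other, and the log2 difference was 1.02 without replicate 2 of untreated ubp16. For pcr1 the difference was 0.82 ± 0.13 and for atf1 0.72 ± 0.15 (edgeR, adjusted p = 0.000204 and 0.00212); the atf1 value was 0.42 without replicate 2 of untreated ubp16 and 0.98 without replicate 1. For pyp1 it was 0.70 ± 0.13 and for win1 0.45 ± 0.08 (edgeR, adjusted p = 0.000742 and 0.000735). These 5 calls held in each of the 4 fits that left out a library. The genes sty1 (0.08, 95% interval -0.11 to 0.27) and pyp2 (-0.05, -0.53 to 0.44) were not called (edgeR, adjusted p = 0.539 and 0.907), nor were wis4 (0.16), mcs4 (-0.08) and wis1 (-0.29). With library totals wis4 was called higher (0.26), and without replicate 1 of untreated WT wis1 was called lower (-0.41).

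In untreated ubp8, 3 of 10 members were called, all lower than in untreated WT, where 38.9% of all genes were called (15.1% higher and 23.8% lower). That background rests on single libraries: 1188 genes in place of 3180 were called without replicate 2 of untreated WT, with 54.2% of them higher in place of 38.8%, and 1361 without replicate 2 of untreated ubp8. The members called were 3 of the upstream genes: mcs4 (-0.48 ± 0.10), wis1 (-0.37 ± 0.12) and wis4 (-0.25 ± 0.09), with edgeR adjusted p-values of 0.00188, 0.0244 and 0.0382. For mcs4 the levels were 119.8 and 108 CPM in untreated ubp8, against 158 and 161 CPM in untreated WT, with no overlap. These calls depended on the scaling: none of the 3 was called with library totals (mcs4 -0.19, wis1 -0.078 and wis4 0.036). Only mcs4 stayed called with no count filter, with a mean of at least 50 counts, or in a fit of these groups alone. The other 7 members were not called, the largest difference among them being -0.19 ± 0.13 for pyp1.

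After treatment, 5 of 10 members were called between ubp16 and WT, 1 higher and 4 lower, where 55.2% of all genes were called (28.7% higher and 26.5% lower). The gene pyp2 stood at 111 and 197 CPM in treated ubp16, against 677 and 728 CPM in treated WT, 0.219 of the WT level (-2.19 ± 0.19, edgeR adjusted p = 7.5e-08). Lower by less were pyp1 (-0.73 ± 0.12, 0.000123), pcr1 (-0.64 ± 0.12, 0.000198) and wis4 (-0.30 ± 0.09, 0.0103); the wis4 call was lost without replicate 2 of treated WT (-0.22) or replicate 2 of treated ubp16 (-0.24). The gene win1 was higher, at 125 and 131 CPM in treated ubp16, against 67.4 and 68.3 CPM in treated WT (0.92 ± 0.09, edgeR adjusted p = 1.96e-07). Not called were srk1 (-0.17 ± 0.18), atf1 (0.16 ± 0.15), sty1 (0.17 ± 0.09), mcs4 (0.23 ± 0.10) and wis1 (-0.19 ± 0.13), with edgeR adjusted p-values of 0.438, 0.373, 0.116, 0.0559 and 0.253. Of these, sty1 was called higher with library totals (0.22). The gene mcs4 was called higher with library totals (0.28), either other count filter (0.25 and 0.21), a fit of these groups alone (0.25) and without replicate 2 of treated WT (0.36).

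In treated ubp8, 3 of 10 members were called, all lower than in treated WT, where 32.3% of all genes were called (16.6% higher and 15.7% lower). They were pyp1 (-0.52 ± 0.12), wis4 (-0.39 ± 0.09) and pyp2 (-0.49 ± 0.18), with edgeR adjusted p-values of 0.00443, 0.00422 and 0.0453. The pyp2 libraries did not overlap, at 487 and 513 CPM in treated ubp8, against 677 and 728 CPM in treated WT. Its call was lost in each of the 4 fits without 1 library (-0.57 to -0.46), with DESeq2 (-0.53), with a mean of at least 50 counts (-0.45) and with library totals (-0.33). The wis4 call was lost with library totals (-0.23), and that of pyp1 held.

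**Figure D3:**
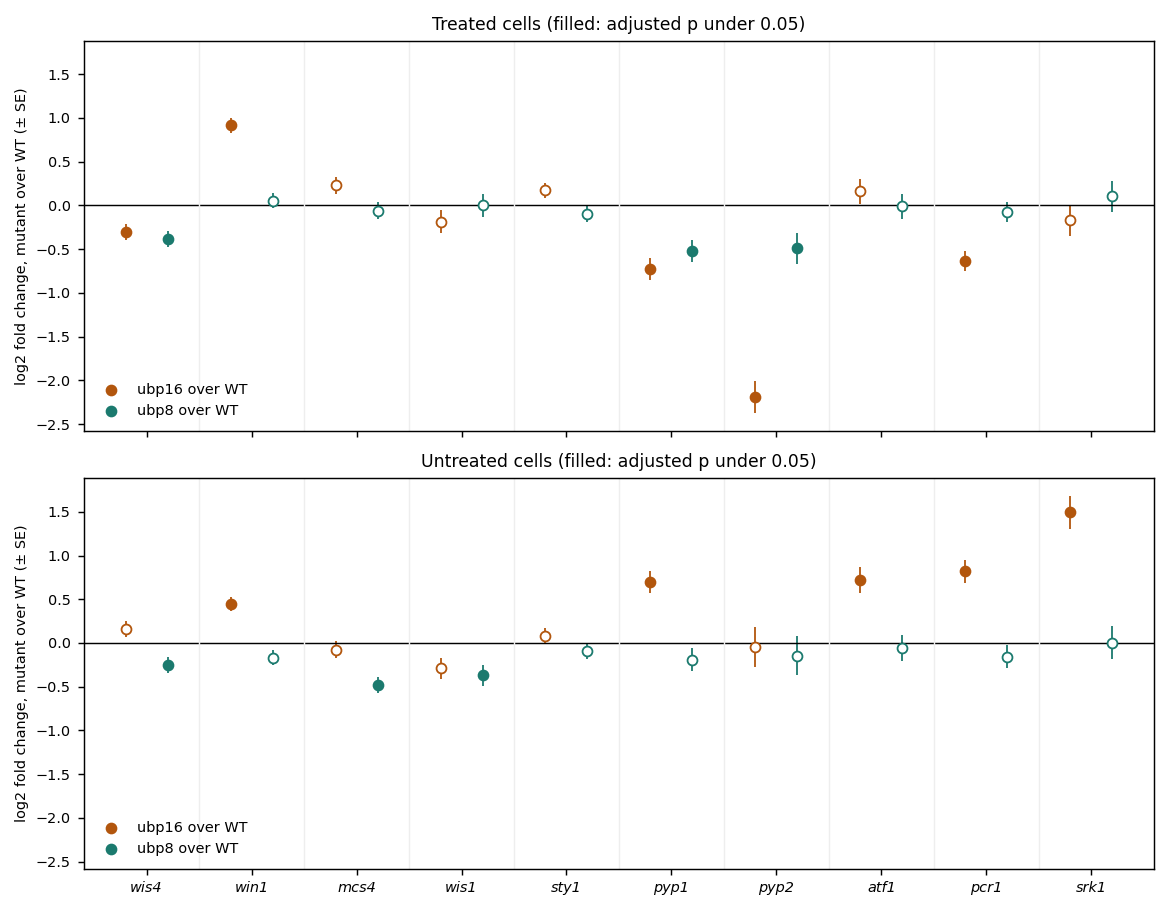
Log2 fold change of each pathway gene in ubp16 over WT and in ubp8 over WT (± SE, 2 libraries per group), in treated cells above and untreated cells below, filled where the adjusted p was under 0.05. In ubp16, srk1 lies at 1.49 untreated and -0.17 treated, and pyp2 at -0.05 untreated and -2.19 treated.

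The sizes of the responses were then set against each other by testing the difference itself. The comparisons of ubp16 with WT and of ubp8 with WT share the WT libraries. The response of ubp16 differed from that of WT in 6 of 10 members, where 27.4% of all genes were called (13% higher and 14.4% lower), with a median difference of -0.51 for the 10 members beside -0.035 for all genes. On the log2 scale the response was lower for pyp2 (-2.14 ± 0.29, edgeR adjusted p = 5.26e-05), srk1 (-1.66 ± 0.26, 0.000171), pcr1 (-1.46 ± 0.17, 1.33e-05) and pyp1 (-1.42 ± 0.18, 2.26e-05). These 4 calls and that of win1 (0.47 ± 0.12, 0.00744) held in each of the 8 fits without a library. The sixth was wis4 (-0.46 ± 0.13, 0.0134), which lost its call in 3 of those 8 fits, each without a replicate 2: of untreated WT (-0.41), of treated WT (-0.38) or of treated ubp16 (-0.40).

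The called differences arose in unlike ways in the levels. For pyp2 the untreated levels of ubp16 and WT overlapped and the treated ones differed. For srk1 the treated levels overlapped, and the untreated level was higher in ubp16. For pcr1 and pyp1, ubp16 was above WT untreated and below WT treated. For atf1 the difference of -0.56 ± 0.21 was not called (edgeR, adjusted p = 0.0581, 95% interval -1.01 to -0.12), though it was called with library totals, DESeq2, either other count filter, the replicate block (-0.55, adjusted p = 0.0204), and when either replicate 1 of untreated ubp16 or replicate 2 of untreated WT was left out. The MAP kinase gene itself, sty1, had a difference of 0.09 ± 0.13 that was not called (edgeR, adjusted p = 0.651, 95% interval -0.18 to 0.36).

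The response of ubp8 differed from that of WT in 1 of 10 members, where 16.8% of all genes were called (10.5% higher and 6.34% lower). The number of all genes called, 1374, was 414 to 1364 with a library left out: 414 without replicate 1 of treated WT or of treated ubp8, 568 and 595 without replicate 2 of untreated WT or of untreated ubp8, and 878 and 908 without replicate 2 of treated WT or of treated ubp8. The share of called genes that were higher, 62.3%, was 38% to 44.7% in 5 of these 6 fits and 60% without replicate 2 of untreated ubp8. The member called was mcs4 (0.42 ± 0.14, edgeR adjusted p = 0.0448), which lost its call with median-of-ratios scaling, library totals, DESeq2, both other count filters, a fit of the compared groups alone (0.32) and 7 of 8 left-out libraries (0.21 to 0.50 over the 8). In the fit of the compared groups alone pyp1 was called instead (-0.43 ± 0.14, edgeR adjusted p = 0.0456). For pyp2 the difference was -0.35 ± 0.29 (95% interval -0.95 to 0.26), for srk1 0.10 ± 0.26 (95% interval -0.45 to 0.65), for atf1 0.05 ± 0.21 (-0.40 to 0.49) and for sty1 -0.01 ± 0.13 (-0.27 to 0.26), none called.

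Ratios within a library, taken per kb of exon length and given without a test, relate the partners to each other. The ratio of pyp2 to pyp1 was 1.43 and 2.16 in treated ubp16 and 0.219 and 0.202 in untreated ubp16. It was 5.17 and 5.07 in treated ubp8 and 0.368 and 0.353 in untreated ubp8, and 4.69 and 5.37 in treated WT and 0.411 and 0.294 in untreated WT. Thus pyp2 was the more abundant phosphatase transcript in every treated library and the less abundant in every untreated one. The ratio of atf1 to pcr1 was 1.47 and 1.38 in treated ubp16 and 1.57 and 1.77 in untreated ubp16. It was below 1 in all 4 treated libraries of the other strains, at 0.884 and 0.826 in treated ubp8 and 0.790 and 0.841 in treated WT, and 1.96 and 1.91 in untreated ubp8 and 1.47 and 2.19 in untreated WT. The ratio of srk1 to sty1 was 0.866 and 1.13 in treated ubp16 and 0.250 and 0.432 in untreated ubp16, 1.43 and 1.46 in treated ubp8 and 0.135 and 0.139 in untreated ubp8, and 1.21 and 1.30 in treated WT and 0.125 and 0.133 in untreated WT.

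**Figure D4:**
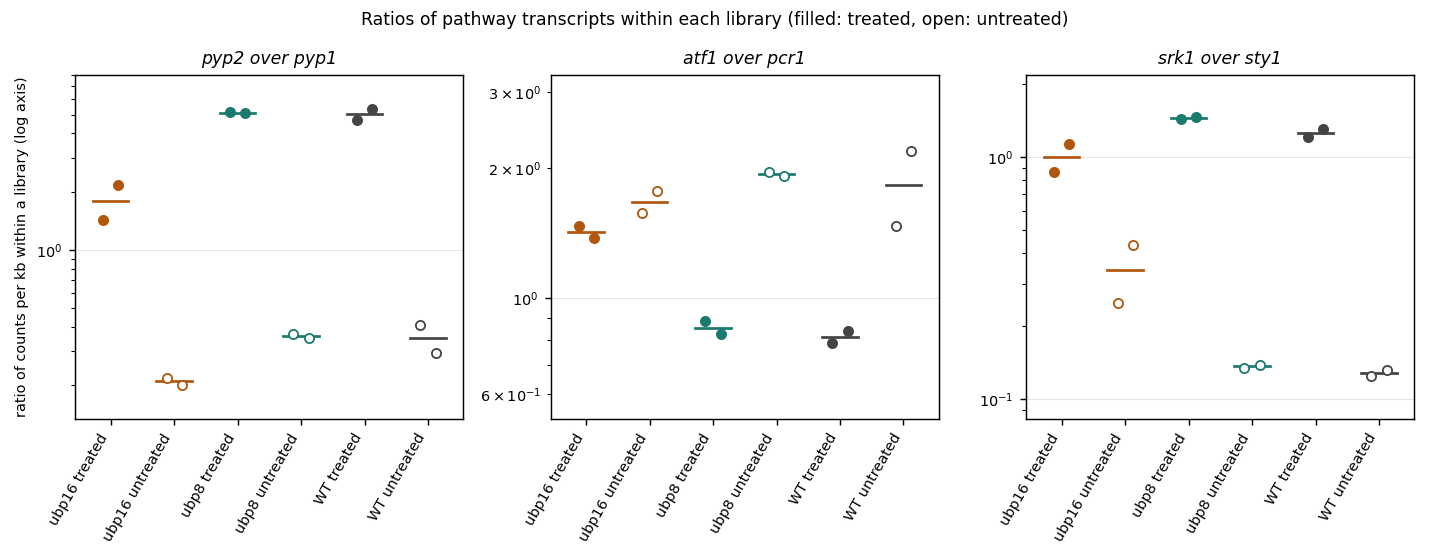
Ratios of pathway transcripts within each library (counts per kb of exon length, log axis), with treated libraries filled, untreated libraries open and a bar at the mean of the 2 libraries of a group. The atf1 to pcr1 ratio lies above 1 in both treated ubp16 libraries and below 1 in all treated ubp8 and treated WT libraries.

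Every one of the 10 members shares bases with another annotated gene: 19 such genes were found in ASM294v3, 18 of them on the opposite strand, and 10 of the 19 were tested. The libraries were made with a stranded kit, per the labels, but no source used here names the strand setting of the counting. The RNAs opposite the members did not all move one way. SPNCRNA.7302, opposite 5.38% of the span of srk1, had 0.316 and 0.789 CPM in treated WT, against 3.13 and 2.38 CPM in untreated WT, and 0.367 and 1.19 CPM in treated ubp8, against 6.24 and 6.92 CPM in untreated ubp8. Its change was -3.12 ± 0.55 in ubp8 and -2.28 ± 0.66 in WT (edgeR, adjusted p = 0.000165 and 0.00824), the WT call being lost without replicate 1 of treated WT (-1.77), and -1.21 ± 0.81 in ubp16, not called (0.232). SPNCRNA.5237, opposite 17.7% of the span of atf1, rose together with atf1, by 2.24 ± 0.53 in ubp16, 2.77 ± 0.47 in ubp8 and 2.24 ± 0.65 in WT (edgeR, adjusted p = 0.00196, 9.86e-05 and 0.00834), at levels of at most 2.49 CPM. Its untreated WT libraries had 0.195 and 0.177 CPM, 2 counts each and under the floor, and its untreated ubp16 libraries had 5 and 3 counts. The WT call was lost without replicate 2 of untreated WT (2.17).

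The non-coding RNA with the highest level among those opposite a member was SPNCRNA.622, which lies opposite 82.0% of the span of sty1. It had 53.2 and 41.3 CPM in treated ubp16 and 35.6 and 25.3 CPM in untreated ubp16, 19.6 and 25.3 CPM in treated ubp8 and 31.8 and 32.6 CPM in untreated ubp8, and 13.6 and 13.4 CPM in treated WT and 21.5 and 18.7 CPM in untreated WT. It was higher in treated ubp16 than in treated WT (1.81 ± 0.18, edgeR adjusted p = 4.96e-07). Its response in ubp16 differed from that in WT by 1.20 ± 0.26 (0.0023), which held in each of 8 fits without a library (0.98 to 1.47). With peroxide it changed by 0.63 ± 0.17 in ubp16, -0.53 ± 0.17 in ubp8 and -0.57 ± 0.19 in WT (edgeR, adjusted p = 0.00514, 0.0163 and 0.0197). The ubp16 call was lost with library totals (0.37) and in 2 of 4 fits without a library, without replicate 2 of untreated ubp16 (0.41) or replicate 1 of treated ubp16 (0.46), and the ubp8 and WT calls were lost in 3 of 4 each. The sty1 transcript itself was not called between ubp16 and WT in either condition.

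Opposite win1 lie SPNCRNA.4298 and SPNCRNA.4299, which cover 25.0% and 17.8% of its span. SPNCRNA.4299 had 10.7 and 9.09 CPM in treated ubp16, against 1.28 and 1.07 CPM in untreated ubp16, and 0.421 and 0.296 CPM in treated WT. SPNCRNA.4298 had 7.45 and 5.30 CPM in treated ubp16, against 0.496 and 1.17 CPM in untreated ubp16, and 0.421 and 0.691 CPM in treated WT. Neither exceeded 1.83 CPM in any library outside treated ubp16, and several WT values are close to the floor. In ubp8, SPNCRNA.4299 had 1.83 and 1.097 CPM treated, against 0.520 and 0.741 CPM untreated. It was called higher with peroxide there (1.22 ± 0.43, edgeR adjusted p = 0.0256), a call lost without replicate 1 of either group (0.99 and 0.69), with library totals (0.90), DESeq2 (1.22), no count filter (1.13) and these groups alone (1.21). It was also called higher in treated ubp8 than in treated WT (2.03 ± 0.53, adjusted p = 0.00829), a call lost without replicate 2 of treated WT (1.77) or replicate 1 of treated ubp8 (1.56). Treated ubp16 was above treated WT by 4.75 ± 0.44 for SPNCRNA.4299 and by 3.49 ± 0.53 for SPNCRNA.4298 (edgeR, adjusted p = 1.96e-07 and 3.93e-05). The response of SPNCRNA.4299 differed between ubp16 and WT (3.42 ± 0.77, 0.00337) and that of SPNCRNA.4298 was not called to differ (1.75 ± 1.08, 0.257). Just upstream of atf1, on the same strand and overlapping its first 38 bases, SPNCRNA.1441 had 7.17 and 5.70 CPM in treated ubp16 and at most 1.56 CPM in the other libraries (3.50 ± 0.54 against treated WT, edgeR adjusted p = 4.09e-05).

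**Figure D5:**
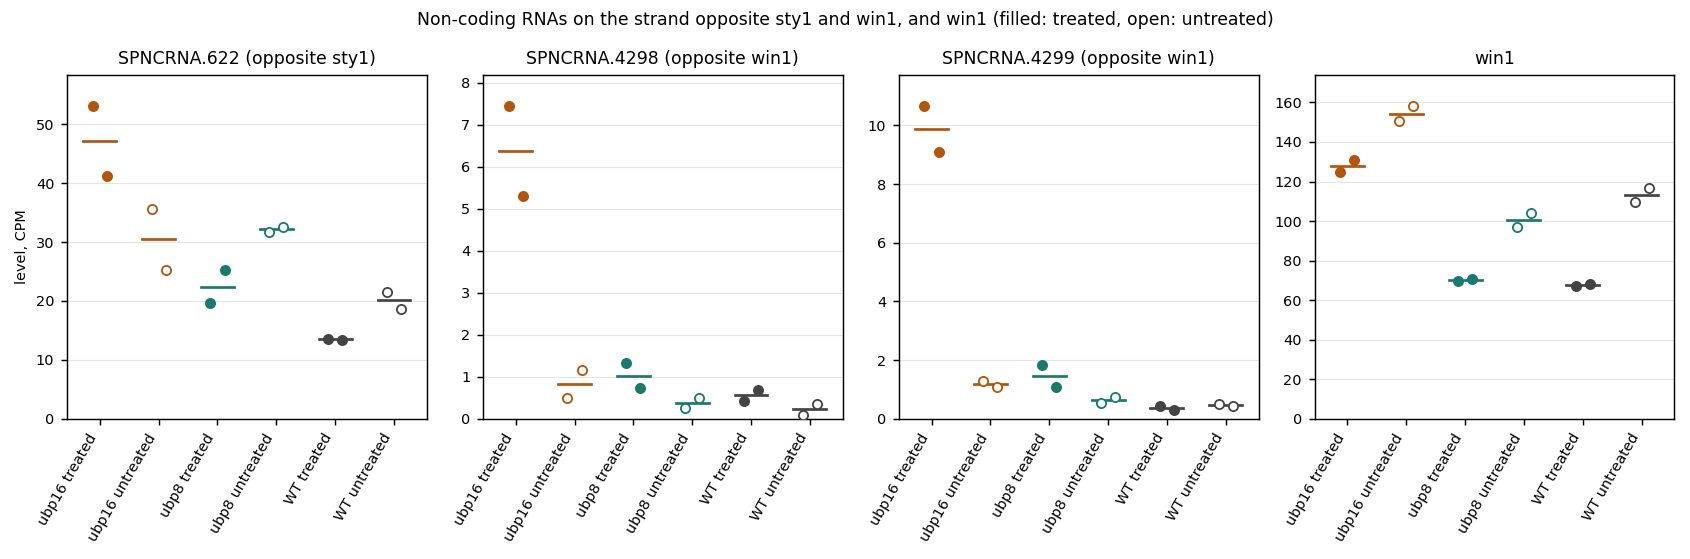
Levels (CPM, linear axes from 0) of SPNCRNA.622, which lies opposite sty1, of SPNCRNA.4298 and SPNCRNA.4299, which lie opposite win1, and of win1 in the 12 libraries, with treated libraries filled, untreated libraries open and a bar at the mean of the 2 libraries of a group. SPNCRNA.4298 and SPNCRNA.4299 reach 5.30 CPM or more in treated ubp16 and stay at 1.83 CPM or less in the other libraries.

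A list of 20 other regulators of the pathway was described beside the members, with all 20 tested. It holds histidine kinases and phosphorelay proteins (mak1, mak2, mak3, mpr1, prr1), phosphatases of the Ptc family, RNA-binding proteins (csx1, cip1, cip2), related transcription factors (atf21, atf31) and others. With peroxide, 10 were higher and 2 lower in ubp16 (median 0.23), 12 higher in ubp8 (0.39), and 9 higher and 4 lower in WT (0.20). The shares of all genes tested were 25.2% higher and 25.2% lower in ubp16, 28% and 25.8% in ubp8, and 26.2% and 27% in WT. With library totals the ubp16 median was -0.02 and the counts were 6 and 5 in ubp16, 10 and 5 in ubp8, and 7 and 8 in WT. The genes ptc1 and mpr1 were called higher in all 3 strains. The phosphatase gene ptc1 had 293 and 336 CPM in treated ubp16, against 100.5 and 150.5 CPM in untreated ubp16, and 259 and 286 CPM in treated WT, against 54.4 and 60.5 CPM in untreated WT. Its change was 1.33 ± 0.14 in ubp16, 2.14 ± 0.14 in ubp8 and 2.25 ± 0.15 in WT, and that of mpr1, which passes phosphate from the histidine kinases to Mcs4, was 1.14 ± 0.15, 2.02 ± 0.16 and 1.79 ± 0.16.

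In untreated ubp16, 7 of these 20 genes were higher and 2 lower than in WT, with ptc1 at 1.12 ± 0.15 and tdh1, which encodes a glycolytic enzyme that binds Mcs4, at -1.51 ± 0.12 (edgeR, adjusted p = 2.92e-05 and 1.2e-07). In treated ubp16, 9 were higher and 5 lower, with mak1 at 0.86 ± 0.08 and tdh1 at -1.19 ± 0.12. Of all genes tested, 14.3% were higher and 11.3% lower in untreated ubp16, and 28.7% and 26.5% in treated ubp16. The number lower in treated ubp16 was thus near the share of all genes. In untreated ubp8, 13 were lower than in WT (median -0.33), where 23.8% of all genes were lower. With library totals 1 of them was lower, as were 286 of all 8166 genes. The response differed in ubp16 for 9 of them, where 27.4% of all genes were called (13% higher and 14.4% lower). It was greater for mak1 (0.61 ± 0.12), mak3 (0.58 ± 0.13), ptc4 (0.56 ± 0.14), mak2 (0.51 ± 0.13) and cip2 (0.43 ± 0.14), and lower for atf21 (-3.82 ± 1.04), atf31 (-1.81 ± 0.65), ptc1 (-0.92 ± 0.20) and mpr1 (-0.64 ± 0.22). The levels of atf21 and atf31 were at most 3.37 CPM, and the calls of atf31 and mpr1 were lost in 8 and 4 of 8 fits without a library. In ubp8 it was greater for csx1 (0.75 ± 0.14), cip2 (0.69 ± 0.14), ptc4 (0.62 ± 0.14) and mak3 (0.46 ± 0.13), where it was greater for 10.5% of all genes. In treated ubp8, 0 of the 20 were called higher and 0 lower than in treated WT (median -0.026), where 32.3% of all genes were called. The untreated ubp8 calls depended on the scaling. The number of all genes called in the ubp8 response minus that of WT rested on single libraries, as given above.

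The activity of Sty1 and Atf1 was not measured. Transcript levels were followed for 10 genes known as targets of Sty1 and Atf1. They include ctt1 (catalase), gpx1 (glutathione peroxidase), tps1 and ntp1 (trehalose metabolism) and fbp1 (gluconeogenesis). Their summed level was 32300 to 35200 CPM in treated ubp16, against 6060 to 10100 CPM in untreated ubp16, 26200 to 26900 CPM in treated ubp8, against 2770 to 3330 CPM in untreated ubp8, and 19100 to 22300 CPM in treated WT, against 1880 to 2680 CPM in untreated WT. Such a sum gives the most weight to the most abundant of the 10 genes. With peroxide, 8 were higher and 1 lower in ubp16, 9 higher in ubp8 and 8 higher in WT, where 25.2%, 28% and 26.2% of all genes tested were higher. In untreated ubp16, 9 of 10 were higher than in WT (median 2.35, beside 0.011 for all genes), where 14.3% of all genes were higher. In treated ubp16, 4 were higher than in WT (median 0.35, beside -0.019), where 28.7% of all genes were higher. In untreated ubp8, 3 of 10 were higher than in untreated WT (8 with library totals), and in treated ubp8 4 were higher than in treated WT. Of all genes, 15.1% were higher in untreated ubp8 and 16.6% in treated ubp8. With library totals, 2216 of 8166 genes were higher in untreated ubp8. The response was lower in ubp16 for 8 of 10 (median difference -1.45), led by ish1 (-2.64 ± 0.28) and gpx1 (-2.23 ± 0.29). It was lower for 14.4% of all genes. The nuclear envelope gene ish1 had 4414 and 5164 CPM in treated ubp16, against 3240.0 and 3692 CPM in treated WT, and 466 and 845 CPM in untreated ubp16, against 70.4 and 81.1 CPM in untreated WT.

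The other 2 MAP kinase cascades were set beside the pathway. Of 9 cell integrity genes, 3 were higher and 4 lower with peroxide in ubp16, 3 and 2 in ubp8, and 2 and 4 in WT, beside 50.3%, 53.8% and 53.2% of all genes called in these responses. The MAP kinase kinase kinase gene mkh1 had 164 and 163 CPM in treated ubp16, against 82.1 and 88.9 CPM in untreated ubp16, 89.7 and 94.2 CPM in treated ubp8, against 50.3 and 45.2 CPM in untreated ubp8, and 66.2 and 72.6 CPM in treated WT, against 58.9 and 57.5 CPM in untreated WT. Its response exceeded that of WT by 0.69 ± 0.13 in ubp16 and 0.69 ± 0.13 in ubp8 (edgeR, adjusted p = 0.000842 and 0.00296). Of the 3 pheromone cascade genes, all were called higher in ubp16 than in WT in both conditions (2 of 3 with median-of-ratios scaling in untreated cells). Of all genes, 28.7% were higher in treated ubp16 and 14.3% in untreated ubp16. The MAP kinase gene spk1 had 45.3 and 27.4 CPM in treated ubp16, against 2.95 and 3.45 CPM in treated WT, and 90.5 and 92.5 CPM in untreated ubp16, against 14.8 and 14.8 CPM in untreated WT (3.50 ± 0.24 and 2.63 ± 0.18, edgeR adjusted p = 4.91e-09 and 1.83e-08). Like most of the M-cell markers given above, the pheromone genes were higher in ubp16 than in WT. With peroxide, 1 of the 3 pheromone genes was higher and 2 lower in ubp16, 2 and 1 in ubp8, and 1 and 1 in WT. Of all genes tested, 25.2% were higher and 25.2% lower in ubp16, 28% and 25.8% in ubp8, and 26.2% and 27% in WT. So few genes do not tell the 2 sets apart. Of the M-cell markers 0 were higher and 2 lower in each strain. The part of the markers was not tested.

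Across the 12 libraries the downstream members moved together: Pearson's r of log2 CPM was 0.99 for pcr1 with srk1, 0.988 for atf1 with srk1 and 0.961 for atf1 with pcr1, while wis1 ran opposite to srk1 (-0.888). These are descriptions over libraries that share the treatment and the strains. Among 4793 coding genes with a mean of at least 50 counts, the patterns most like that of atf1 over the 12 libraries were those of SPAP32A8.02 (r = 0.9958), mpr1 (0.9953) and ptc1 (0.9953). Those most like pyp2 were msy1 (0.9911), SPAC4G9.22 (0.9875) and ccc2 (0.9872), and those most like sty1 were SPBC106.03 (0.9953), SPAC18B11.09c (0.9946) and SPBC16A3.17c (0.9893). The next gene stood at 0.9951 for atf1, 0.9868 for pyp2 and 0.987 for sty1, so the named genes are not set apart from those that follow.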

How the data were processed

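PolyA RNA of 12 libraries in 6 groups was analysed. The authors deposited a table of raw read counts for each gene. The submitters' processing notes list STAR, HTSeq, Trimmomatic, FastQC and DESeq2, with no version, and no source used here gives the genome build or the strand setting of the counting. Of 12683 genes, 12602 matched the ASM294v3 annotation by identifier, which gave exon lengths, overlaps and promoters.

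The counts were fitted with edgeR 4.0.16 (limma 3.58.1) under R 4.3.3. The function filterByExpr left 8166 genes with 99.95% of counts. After TMM scaling, 1 quasi-likelihood fit covered all 12 libraries, with a mean for each group and 6 residual degrees of freedom, and p-values were adjusted by Benjamini-Hochberg within each of 9 comparisons, with a threshold of 0.05: the response of each strain, each mutant against WT in each condition, and each mutant's response minus that of WT. The SE of a log2 fold change is its size over the root of its F statistic. The fit was tested on simulated data of 8166 genes, 100 of them changed, for treated against untreated WT. At a log2 change of 1 it recovered 70% of the changed genes, with 11 false calls. At a log2 change of 2 it recovered 82%, with 11 false calls. In both, false calls were a larger share of the calls than the threshold of 0.05. In the data 4346 genes were called in this comparison, far more than the 100 changed here. The simulation therefore does not test the scaling or the false calls under so broad a change.

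All 10 members were named in every comparison. From each list, counts, the median, up to 3 called genes with the largest changes and those called in a difference of responses could be named. Which of these genes and of the overlapping RNAs are described singly was chosen after their values were seen. The members and lists were chosen with earlier results of these data known. Alternatives were DESeq2 1.42.0, scaling by median of ratios or by library totals, no count filter, a mean of at least 50 counts, the groups of a comparison alone, a replicate block and each library left out; for genes outside the members these were added after seeing the data.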

Additional observations from a re-analysis of the deposited data

Results flagged for a closer look

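A response that differs between strains, by the test of the difference itself, was called for 7 results. In ubp16 against WT these were wis4 (-0.46), win1 (0.47), pyp1 (-1.42), pyp2 (-2.14), pcr1 (-1.46) and srk1 (-1.66), each the log2 response of ubp16 minus that of WT. In ubp8 against WT it was mcs4 (0.42), the log2 response of ubp8 minus that of WT. No group held enough libraries for a search for single libraries that stand apart.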

How the results depend on the processing

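Of 1070 recomputed values for the 90 member results, 930 kept their direction and side of the threshold, 50 lost the call, 25 gained it and 65 changed sign; the cause was not tested. The called ubp16 differences of pyp1, pyp2, pcr1, srk1 and win1, and the called responses of sty1, pyp2, atf1, pcr1 and srk1 in all 3 strains, held under every alternative run. With 2 libraries per group, precision is limited, and the RNAs opposite win1, pyp2, atf1 and srk1 lie near the floor in several libraries.

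The number of members called in untreated ubp8 against WT, 3 in the report, was 0 with library totals in edgeR (2 at an unadjusted p under 0.05). DESeq2, run with its own median-of-ratios scaling and not with library totals, called 3. The number was 1 with no count filter, 1 with a mean of at least 50 counts and 1 with the 2 groups alone. The calls of wis1 and wis4 were lost without replicate 2 of untreated WT (-0.172 and -0.219) or of untreated ubp8 (-0.305 and -0.174). That of wis4 was also lost without replicate 1 of untreated WT (-0.218). In treated ubp8 against WT the number of members called was 1 with library totals. In the ubp8 response minus that of WT, where it was 1, it was 0 with median-of-ratios scaling, library totals, DESeq2, no count filter and a mean of at least 50 counts (1, 2, 1, 3 and 3 at an unadjusted p under 0.05), and 0 to 1 with a library left out.

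Library totals moved the median of all genes by -0.25, -0.32 and -0.19 in the responses of ubp16, ubp8 and WT, by 0.11 and 0.29 in untreated ubp16 and ubp8 against WT, by 0.16 in treated ubp8 against WT and by -0.13 in the ubp8 response minus that of WT. The share of called genes that were higher was then 31.4%, 29.0% and 36.4% in the responses, in place of 50%, 52.1% and 49.2%, 71.2% and 88.6% in untreated ubp16 and ubp8, in place of 55.7% and 38.8%, and 73.5% in treated ubp8, in place of 51.4%. In the ubp8 response minus that of WT it was 41.5% in place of 62.3%. That share in untreated ubp8 was 53.9% with no count filter and 59.0% with a mean of at least 50 counts, where 1849 genes in place of 3180 were called, and 55.4% with the 2 groups alone. In the ubp8 response minus that of WT it was 41.1% with no count filter, 47.7% with a mean of at least 50 counts and 42.1% with the groups alone. Leaving out replicate 2 of untreated WT gave 1364 called genes in place of 2088 in untreated ubp16 against WT, and leaving out replicate 1 of treated ubp8 gave 1649 in place of 2637 in treated ubp8 against WT. With library totals, the sign changed for wis4 (-0.24) in the ubp8 response, for wis4 (0.036), win1 (0.12), sty1 (0.20), pyp1 (0.10), pyp2 (0.14), atf1 (0.24) and pcr1 (0.13) in untreated ubp8 against WT, for mcs4 (0.027) and pyp2 (0.056) in untreated ubp16 against WT, for mcs4 (0.10), wis1 (0.16), sty1 (0.064), atf1 (0.15) and pcr1 (0.083) in treated ubp8 against WT, for atf1 (-0.089), pcr1 (-0.048) and srk1 (-0.029) in the ubp8 response minus that of WT. With no count filter, the sign changed for wis4 (-0.013) in the ubp8 response, for atf1 (0.023) in untreated ubp8 against WT, for atf1 (-0.053) and pcr1 (-0.015) in the ubp8 response minus that of WT. With a mean of at least 50 counts, the sign changed for wis4 (-0.017) in the ubp8 response, for win1 (0.008), sty1 (0.086), pyp2 (0.029), atf1 (0.12) and pcr1 (0.018) in untreated ubp8 against WT, for wis1 (0.042) and atf1 (0.033) in treated ubp8 against WT, for atf1 (-0.088), pcr1 (-0.051) and srk1 (-0.031) in the ubp8 response minus that of WT. With median-of-ratios scaling, the sign changed for srk1 (-0.014) in untreated ubp8 against WT. With DESeq2, the sign changed for srk1 (-0.014) in untreated ubp8 against WT. In fits of the compared groups alone, the sign changed for atf1 (0.023) in untreated ubp8 against WT, for wis1 (0.007) in treated ubp8 against WT, for atf1 (-0.061), pcr1 (-0.025) and srk1 (-0.004) in the ubp8 response minus that of WT. For genes outside the members, library totals changed the sign of mak1 (-0.12) and cmk2 (-0.056) in the ubp8 response and of mak3 (0.042) and mkh1 (0.003) in untreated ubp8 against WT. Of the 9 cell integrity genes, 1 was then higher and 5 lower in the ubp16 response, 3 and 5 in that of ubp8, and 0 and 6 in that of WT.

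Leaving out 1 library changed the sign in some fits. In the ubp8 response the values ran for wis4 from -0.045 to 0.16 and mcs4 from -0.18 to 0.070. In the ubp16 response they ran for pyp1 from -0.38 to 0.033. In untreated ubp8 against WT they ran for pyp2 from -0.27 to 0.053, atf1 from -0.22 to 0.20 and srk1 from -0.053 to 0.097. Untreated ubp16 against WT gave pyp2 from -0.24 to 0.15. Treated ubp8 against WT gave mcs4 from -0.20 to 0.039 and atf1 from -0.13 to 0.068. The ubp8 response minus that of WT gave sty1 from -0.12 to 0.070, atf1 from -0.23 to 0.21, pcr1 from -0.078 to 0.10 and srk1 from -0.066 to 0.15. The ubp16 response minus that of WT gave wis1 from -0.033 to 0.23.

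The labels do not say whether equal replicate numbers mark pairs. Over 15 pairs of groups the correlation of deviations of equal numbers ran from -0.069 to 0.162, with 3 above 0.1, which left pairing unestablished. The replicate block changed 2 member calls, wis4 in the WT response (0.22, adjusted p = 0.0485) and atf1 in the ubp16 response minus that of WT (-0.55, adjusted p = 0.0204), and no other member call. Over all genes it changed the count of calls by less than 1.5 times in each comparison, the largest shift being 1680 in place of 1374 in the ubp8 response minus that of WT.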
